A study of Mus musculus with 4 samples.

Results

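Collagen hydroxylases, the collagen chaperone and lysyl oxidases were followed in Py-4-1, an established mouse endothelial tumour line (hemangioendothelioma). Clones labelled pcDNA/Prox1 and described as stably expressing Prox1 were set against control-transfected clones labelled pcDNA, all of the same line. Each group held 2 clones, each clone was measured on 1 one-colour Affymetrix array, and all 4 cultures were harvested close to confluence. The 9 listed genes were P4ha1, P4ha2, P4hb, Plod1, Plod2, Plod3, Serpinh1, Lox and Loxl2. They were chosen by their place in collagen maturation and by the Prox1 against control contrast of these same arrays, in which P4ha2 had already been seen to be low. Their changes in that contrast are therefore described below with no p-value, and the counts that pass a threshold are given once, beside the share over all probe sets, with nothing read from them. Probe sets, the groups of array probes that report 1 transcript, were kept where the platform annotation gives one of these symbols alone. That left 13 probe sets for 8 of the 9 genes, out of 22626 probe sets and 12393 named genes on the array. Loxl2 had no probe set of its own.

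Collagen chains are modified in the endoplasmic reticulum before they fold into a triple helix. Prolyl 4-hydroxylase, a tetramer of catalytic alpha subunits (P4ha1, P4ha2) and the disulfide isomerase P4hb, hydroxylates prolines and so makes the helix stable at body temperature. Lysyl hydroxylases (Plod1, Plod2, Plod3) hydroxylate lysines that later carry sugars or crosslinks, and the serpin-family chaperone Serpinh1, also called Hsp47, binds the folded helix until export. Outside the cell, the copper enzymes Lox and Loxl2 oxidise lysines so that neighbouring collagen and elastin molecules become covalently linked. Both hydroxylase families need iron, ascorbate and 2-oxoglutarate, and several of these genes are known targets of the hypoxia-inducible factor HIF. Endothelial cells use the same machinery for the type IV collagen of the basement membrane.

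The values were deposited MAS5 signal intensities on a linear scale, with the mean of every array, trimmed by 2% at each end, at 500. Median intensities were 180 and 173 in Prox1-labelled clones 1 and 2, against 163 and 177 in control clones 1 and 2. Prox1 itself, the transfected homeobox gene, had 1 probe set, whose intensity was 62.4 and 44.3 in Prox1-labelled clones 1 and 2, against 52.1 and 60.5 in control clones 1 and 2. Whether its probes match the transfected sequence is not given in the sources used here, so Prox1 gave no check of the labels, and the clones are called Prox1-labelled throughout. Of the other lymphatic endothelial markers, Lyve1 and Flt4 were higher in both Prox1-labelled clones, whereas Pdpn overlapped between the groups. Lyve1 read 1426 and 2204 in Prox1-labelled clones 1 and 2, against 534 and 998 in control clones 1 and 2 (limma adjusted p = 0.165). Flt4 read 1188 and 1064, against 797 and 915 in the control clones (limma adjusted p = 0.403). Pdpn read 157 and 152, against 128 and 153 in the control clones. As a guide to signal without a mouse transcript, the 27 Bacillus control probe sets reached at most 88.4 and 97.5 in Prox1-labelled clones 1 and 2, against 45.3 and 101 in control clones 1 and 2. The Prox1 probe set exceeded that level on 1 array, that of control clone 1, and lay below it in both Prox1-labelled clones. Of 10 endothelial markers, 8 (among them Pecam1, Cdh5, Kdr and Esam) exceeded that level on all 4 arrays, Cldn5 did so on 1 and Vwf on none. Their summed intensity was 36714 and 34153 in Prox1-labelled clones 1 and 2, against 26536 and 33153 in control clones 1 and 2, and its part in the results below was not tested. Of 8 fibroblast markers, Col1a1 and Col3a1 included, 0 exceeded the Bacillus level on all arrays. Of 6 epithelial markers 1 did so (Krt8), as did 3 of the 6 leukocyte markers on the array (Cd68, Lyz2 and Csf1r). Of 7 smooth muscle or pericyte markers 4 did so (Acta2, Des, Rgs5 and Cspg4), and Myh11 and Cnn1 did so on none. The summed intensity of the 7 was 703 and 774 in Prox1-labelled clones 1 and 2, against 837 and 1043 in control clones 1 and 2. The sum of the 4 lymphatic markers, Prox1 and Pdpn included, was 2833 and 3464 in the Prox1-labelled clones, against 1511 and 2127 in the control clones. The part of either in the results below was not tested. Control clone 1 stood apart from its partner: 355 of 11656 tested probe sets differed at least 2-fold between the control clones, against 60 between the Prox1-labelled clones. Changes of the 8 genes are therefore also given against each control clone where these were measured above background. Log2 values are log2(intensity + 47), with 47 the 25th percentile of all values.

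The catalytic subunit gene P4ha2 had the widest difference of the 8 genes. Its intensity was 90.4 and 142 in Prox1-labelled clones 1 and 2, against 513 and 353 in control clones 1 and 2. Both Prox1-labelled clones lay below both control clones with a wide gap, and the mean of 116 ± 36.8 (SD, n = 2) was 26.9% of the control mean of 433 ± 113. On the log2 scale the change was -1.55 ± 0.28 (standard error of the fit). It was -1.79 against control clone 1 and -1.31 against control clone 2, so that it was large against either. Because the Prox1-labelled values were dim, the size depended on the pseudocount, with -1.91 without one and -1.06 with 173 in place of 47. In Prox1-labelled clone 1 the signal stood just above the highest Bacillus control, at 88.4. The probe set passed the filter on low values through its control values, both above their arrays' medians, while both Prox1-labelled values lay below theirs.

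P4ha1, which encodes the main catalytic subunit in most tissues, showed another arrangement of the clones. Its brighter probe set read 451 and 484 in Prox1-labelled clones 1 and 2, against 1049 and 574 in control clones 1 and 2. Its other probe set read 484 and 418 in the Prox1-labelled clones, against 894 and 475 in the control clones. Control clone 1 was high on both probe sets, whereas control clone 2 lay close to the Prox1-labelled clones. The groups did not overlap on the first probe set and overlapped on the second. The log2 change of the brighter probe set was -0.68 ± 0.29, made up of -1.09 against control clone 1 and -0.27 against control clone 2. For the other it was -0.50 ± 0.30, with -0.92 and -0.072 against the same control clones.

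P4hb, the shared beta subunit, which also acts on its own as protein disulfide isomerase, was bright on every array. It read 7072 and 6120 in Prox1-labelled clones 1 and 2, against 11391 and 8527 in control clones 1 and 2. The groups did not overlap, and the means were 6596 ± 674 and 9959 ± 2025 (SD, n = 2 each), a ratio of 66.2%. The log2 change was -0.58 ± 0.21, with -0.79 against control clone 1 and -0.37 against control clone 2. This gene rests on a single probe set, whose suffix marks it as matching several transcripts of the gene.

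**Figure D1:**
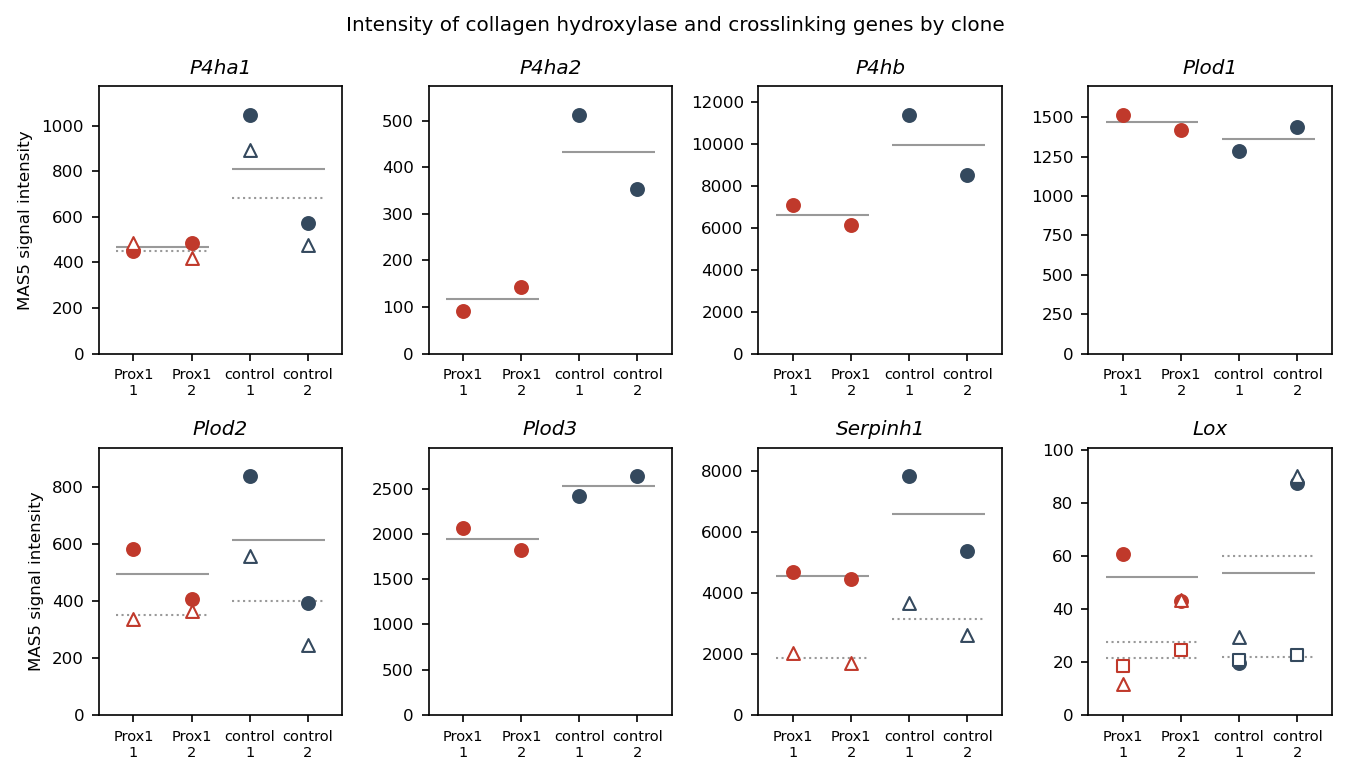
MAS5 signal intensity (linear axis from 0, a scale of its own per gene) of the 8 genes in Prox1-labelled clones 1 and 2 (red) and control clones 1 and 2 (dark blue). Filled circles are a gene's brightest probe set, open triangles and squares its others, and grey lines are group means (solid for the brightest). P4ha2 lies at 90.4 and 142 in the Prox1-labelled clones, below 513 and 353 in the control clones, while the values of Plod1 and Lox overlap between the groups.

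The promoters of the 3 prolyl 4-hydroxylase subunits are shown because HIF is known to act on the catalytic subunit genes. The brightest probe set of each of the 3 genes was lower in both Prox1-labelled clones, while the other of P4ha1 overlapped between the groups. The sequences are RefSeq's on build GRCm38.p6, 250 bases before to 50 after the annotated start, written 5′ to 3′ on the gene's strand. P4ha1 lies at chr10:59323046-59323345 on the plus strand, P4ha2 at chr11:54100674-54100973 on the plus strand and P4hb at chr11:120573204-120573503 on the minus strand. Capitals mark ACGTG, a form of the core of the HIF binding motif, on either strand (CACGT is its reverse complement). The form GCGTG was not searched, so a window without ACGTG is not shown to lack the core.
P4ha1: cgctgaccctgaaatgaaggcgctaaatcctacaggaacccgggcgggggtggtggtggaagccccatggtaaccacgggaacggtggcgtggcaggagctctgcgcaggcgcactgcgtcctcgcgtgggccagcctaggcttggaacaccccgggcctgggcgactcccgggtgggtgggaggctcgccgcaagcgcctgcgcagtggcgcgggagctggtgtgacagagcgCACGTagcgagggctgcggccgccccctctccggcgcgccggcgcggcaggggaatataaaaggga
P4ha2: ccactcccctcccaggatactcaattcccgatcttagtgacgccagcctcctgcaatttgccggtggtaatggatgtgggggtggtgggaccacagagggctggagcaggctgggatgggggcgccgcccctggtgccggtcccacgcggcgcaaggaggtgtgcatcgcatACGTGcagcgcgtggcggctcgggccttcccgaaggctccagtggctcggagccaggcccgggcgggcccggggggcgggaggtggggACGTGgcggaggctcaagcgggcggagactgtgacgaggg
P4hb: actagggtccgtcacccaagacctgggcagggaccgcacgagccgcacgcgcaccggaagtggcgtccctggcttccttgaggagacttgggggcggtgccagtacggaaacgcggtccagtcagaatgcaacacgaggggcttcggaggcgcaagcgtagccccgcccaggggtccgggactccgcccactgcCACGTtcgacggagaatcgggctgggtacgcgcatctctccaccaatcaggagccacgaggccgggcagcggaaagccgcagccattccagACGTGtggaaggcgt

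The P4ha2 window held the ACGTG core 2 times, at bases -78 to -74 and 11 to 15, counted with 1 as the first base of the gene and -1 as the base before it. The P4ha1 window held it 1 time, at -16 to -12 on the opposite strand. The P4hb window held it 2 times, at -56 to -52 on the opposite strand and at 36 to 40. Across the genes described here promoters were available for P4ha1, P4ha2, P4hb, Plod1, Plod3 and Serpinh1. Of these 6 windows 5 held ACGTG, all but that of Plod1. Of all 32851 RefSeq promoters of this length, 19.6% held it. The GC content of the 6 windows ran from 53.3% to 70.3%, against a median of 52.7% over all promoters, and the motif is itself made mostly of G and C. The element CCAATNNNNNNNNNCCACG, known from genes of the unfolded protein response, was in 0 of the 6 windows and in 0.119% of all promoters on either strand. The short heat shock element GAANNTTC was in 1 of the 6, that of Plod1, and in 7.86% of all.

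Among the lysyl hydroxylases the groups did not overlap for Plod3, whereas they overlapped for Plod1 and for both probe sets of Plod2. Plod3, which also transfers sugars onto hydroxylysine and is needed for type IV collagen, read 2069 and 1827 in Prox1-labelled clones 1 and 2, against 2416 and 2638 in control clones 1 and 2. The control clones lay close to each other, and the change was similar against either, -0.31 and -0.43 against control clones 1 and 2. Overall it was -0.37 ± 0.15 on the log2 scale, with means of 1948 ± 171 and 2527 ± 157 (SD, n = 2 each). In contrast to P4ha1 and P4hb, control clone 1 was not the highest array.

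Plod1, which hydroxylates lysines of the helical region, read 1518 and 1420 in Prox1-labelled clones 1 and 2, against 1284 and 1440 in control clones 1 and 2. The 4 values overlapped, and the log2 change was 0.11 ± 0.15, with 0.19 against control clone 1 and 0.027 against control clone 2. Plod2, which hydroxylates lysines of the telopeptides at the ends of the chains and thereby sets the kind of crosslink, varied more within the control group than between the groups. Its brighter probe set read 585 and 409 in the Prox1-labelled clones, against 839 and 393 in the control clones. The other read 339 and 366 in the Prox1-labelled clones, against 557 and 246 in the control clones. On both, control clone 1 was the highest array and control clone 2 the lowest. The sign of the change thus depended on the control clone: on the brighter probe set it was -0.72 against control clone 1 and 0.29 against control clone 2, with -0.22 ± 0.36 overall. On the other it was -0.60 and 0.44 against the same control clones, with -0.077 ± 0.35 overall.

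**Figure D2:**
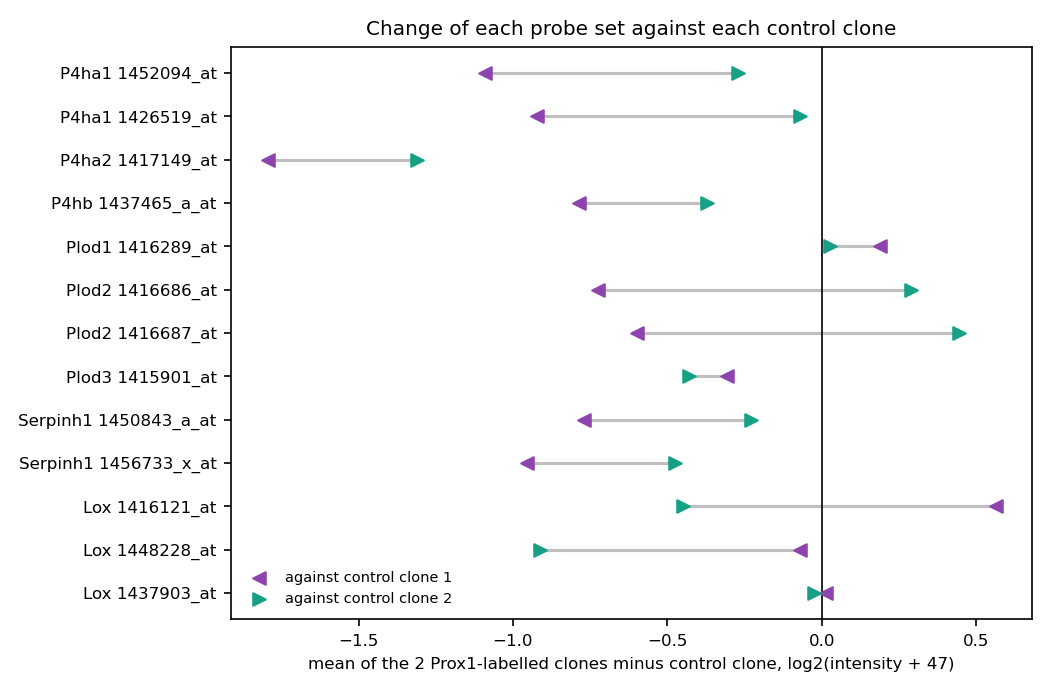
Mean of the 2 Prox1-labelled clones minus 1 control clone, in log2(intensity + 47), for each of the 13 probe sets. Purple triangles pointing left are set against control clone 1 and green triangles pointing right against control clone 2; P4ha2 lies at -1.79 and -1.31, whereas both probe sets of Plod2 lie on opposite sides of 0.

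Serpinh1 was lower in the Prox1-labelled clones on both of its probe sets. The brighter one read 4702 and 4454 in Prox1-labelled clones 1 and 2, against 7845 and 5378 in control clones 1 and 2. The other, whose suffix marks probes that may also match other transcripts, read 2041 and 1707 in the Prox1-labelled clones, against 3664 and 2616 in the control clones. The groups overlapped on neither, and control clone 1 was the highest array on both. The log2 changes were -0.50 ± 0.22 and -0.72 ± 0.21. Against control clone 2 alone they were -0.23 and -0.48, and against control clone 1 alone -0.77 and -0.96.

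The lysyl oxidases were little or not measured. Lox had 3 probe sets, and on each array all 3 lay below the highest Bacillus control of that array. The brightest read 60.7 and 43.1 in Prox1-labelled clones 1 and 2, against 19.7 and 87.3 in control clones 1 and 2, so that the control clones enclosed the others. Its log2 change was 0.057 ± 0.35, and the remaining probe sets gave -0.49 ± 0.35 and -0.0057 ± 0.14. No direction can be read for Lox from signals at this level. The annotation pairs the 1 probe set of Loxl2 with 2 genes, Gm21451 and Loxl2, so its signal cannot be assigned to Loxl2. It read 425 and 299 in the Prox1-labelled clones, against 272 and 297 in the control clones.

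Over the 8 measured genes, each by its brightest probe set, 6 had a negative log2 change and the median was -0.44. The median over all 6956 genes tested was 0.0074, with 49.1% negative. Of the 13 probe sets, 10 (for 7 genes) passed the filter, which asked for an intensity above the array's median on at least 2 of the 4 arrays, and the 3 of Lox did not. With limma and Benjamini-Hochberg adjustment over all probe sets, 0 of these 10 had an adjusted p under 0.05, where 0.103% of all 11656 probe sets did. At an unadjusted p under 0.05 there were 5 lower and 0 higher, where 5.88% of all probe sets were lower and 8.65% higher. The groups did not overlap at 6 of the 10, all lower, against 22.3% lower and 23.9% higher over all probe sets. Nothing is read from these shares, since the genes were taken up with this contrast known. Control clone 1 was the highest of the 4 arrays at 8 of the 10 probe sets, the exceptions being Plod1 and Plod3, and at 27.6% of all probe sets tested. With 2 clones a side, the smallest p of an exact permutation test is 0.333. The labels describe separate clones with 1 culture and 1 array each, so differences between clones, cultures and arrays cannot be told apart, nor can fewer cells expressing a gene and less RNA per cell.

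The rest of the collagen pathway was described from lists of other genes, each gene by its brightest tested probe set in the same limma fit. Among other hydroxylases and folding or export factors, 8 of 14 listed genes were tested, 4 positive and 4 negative, with a median log2 change of -0.042. Of these, 0 passed in either direction, where 0.115% of all genes passed, and at an unadjusted p under 0.05 there were 1 lower and 0 higher (6.14% and 8.22% of all genes). The cyclophilin gene Ppib, whose product forms a complex that hydroxylates a collagen proline at another position, read 4213 and 3883 in Prox1-labelled clones 1 and 2, against 5055 and 5612 in control clones 1 and 2. The groups did not overlap, but the change of -0.39 ± 0.17 did not pass (limma adjusted p = 0.332). Tmem38b, an endoplasmic reticulum cation channel needed for collagen modification, had a log2 change of 0.42 ± 0.21 (adjusted p = 0.405).

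Of 17 genes for procollagen processing and crosslinking, 6 were tested, 4 positive and 2 negative, with a median of 0.12. Again 0 passed (0.115% of all genes), with 1 higher, Tll1, and 1 lower, Sparc, at an unadjusted p under 0.05 (8.22% and 6.14% of all genes). Tll1, a tolloid-like protease related to the procollagen C-proteinase, read 192 and 248 in the Prox1-labelled clones, against 104 and 81.5 in the control clones, and the second control value lay under the Bacillus level. It passed the filter through the Prox1-labelled values alone, so it had to differ. Its log2 change was 0.93 ± 0.24 (limma adjusted p = 0.166). Sparc, a collagen-binding glycoprotein of the matrix, was lower in both Prox1-labelled clones (7086 and 6404) than in both control clones (8630 and 9656), with a change of -0.44 ± 0.16 (adjusted p = 0.282). Other lysyl oxidase genes, named here outside the rule, were Loxl3 with 348 and 376 in the Prox1-labelled clones, against 229 and 353 in the control clones, and Loxl4 with 439 and 381, against 317 and 485 in the control clones. Both overlapped between the groups, and Loxl1 lay below the Bacillus level on all 4 arrays.

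The substrates of these enzymes had changes of both signs. Of 18 collagen chains and elastin, 9 were tested, 5 positive and 4 negative, with a median of 0.16 and 0 past the threshold (0.115% of all genes). At an unadjusted p under 0.05 there were 1 higher and 0 lower (8.22% and 6.14% of all genes). The median was -0.11 over all 18 without the filter. Col8a1, a chain of the short-chain collagen of vessel walls, read 320 and 323 in Prox1-labelled clones 1 and 2, against 60.2 and 184 in control clones 1 and 2. Its log2 change of 1.22 ± 0.33 did not pass (limma adjusted p = 0.179). It was 0.67 without control clone 1, and 1.78 without control clone 2. Col4a5, a basement membrane chain, had a log2 change of 0.39 ± 0.20 (adjusted p = 0.407). The type IV chains Col4a1 and Col4a2, named here outside the rule, did not pass the filter. Col4a1 read 52.8 and 69.2 in the Prox1-labelled clones, against 77.4 and 80.3 in the control clones. Col4a2 read 114 and 71.4, against 81.4 and 102 in the control clones. Col4a1 exceeded the Bacillus level on 1 array and Col4a2 on 3.

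P4hb also belongs to the folding machinery of the endoplasmic reticulum, and the disulfide isomerases, oxidases and chaperones of that compartment had mostly negative changes. All 17 listed genes were tested, 16 were negative, and the median log2 change was -0.62. With adjustment over all tested probe sets 0 passed (0.115% of all genes), and at an unadjusted p under 0.05 there were 11 lower and 0 higher (6.14% and 8.22% of all genes). The disulfide isomerase gene Pdia4 read 565 and 862 in Prox1-labelled clones 1 and 2, against 2677 and 2065 in control clones 1 and 2, a log2 change of -1.69 ± 0.24 (limma adjusted p = 0.0530). It passed in 7 of 14 alternatives, among them each that left out a clone, and limma's adjusted p ran from 0.000254 to 0.367 over the 14. Sdf2l1, a cofactor of the chaperone Hspa5, had a change of -1.56 ± 0.33 (limma adjusted p = 0.128). That change ran from -2.07 to -1.06 when a clone was left out. Control clone 1 was the highest array for 15 of the 17, where it was so for 26.8% of all genes. Without control clone 1 the median was -0.38, and without control clone 2 it was -0.98.

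Serpinh1 is known as a heat shock gene as well. Of 12 genes of the heat shock response 8 were tested, 7 negative, with a median of -0.40 and 0 past the threshold (0.115% of all genes). At an unadjusted p under 0.05 there were 4 lower and 0 higher (6.14% and 8.22% of all genes). The median was -0.30 without control clone 1, and -0.70 without control clone 2. Hsph1, a large chaperone of the cytosol, read 3447 and 3517 in the Prox1-labelled clones, against 9584 and 6000.0 in the control clones (log2 change -1.11 ± 0.23, limma adjusted p = 0.128). It passed without control clone 1 (-0.78, adjusted p = 0.0448), without control clone 2 (-1.45, 0.000337) and with the replicate block (0.0225). The co-chaperone gene Dnajb1 gave -0.94 ± 0.23 (limma adjusted p = 0.165), and passed without control clone 2 (-1.17, adjusted p = 0.00709). Control clone 1 was the highest array for 6 of the 8.

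Hypoxia-inducible genes, to which P4ha1, P4ha2 and Plod2 are counted, were divided. Of 12 tested (16 listed) 6 were positive and 6 negative, with a median of 0.082 and 0 past the threshold (0.115% of all genes). At an unadjusted p under 0.05 there were 1 higher and 0 lower (8.22% and 6.14% of all genes). Control clone 1 was the highest array for 7 of the 12, as it was for P4ha1, P4ha2 and Plod2. The median was 0.20 without control clone 1 and -0.28 without control clone 2. Egln3, the hypoxia-induced hydroxylase that marks HIF for degradation, ran opposite to P4ha2: it read 3063 and 3340 in Prox1-labelled clones 1 and 2, against 2390 and 1701 in control clones 1 and 2, with a change of 0.65 ± 0.21 (limma adjusted p = 0.220). Without control clone 1 it was 0.89, and without control clone 2 it was 0.41. Ddit4, a stress-induced inhibitor of growth signalling, gave 0.47 ± 0.24 (limma adjusted p = 0.420). It was 0.10 without control clone 1, and 0.83 without control clone 2. Among 7 tested genes of HIF subunits and the enzymes acting on them (9 listed), 6 were positive, with a median of 0.20 and 0 past the threshold (0.115% of all genes). At an unadjusted p under 0.05 there were 2 higher, Egln3 and Epas1, and 0 lower (8.22% and 6.14% of all genes). Egln3 stands in both lists and was also the 1 higher gene among the hypoxia-inducible genes. Epas1, the endothelial HIF alpha subunit, read 845 and 930.0 in the Prox1-labelled clones, against 261 and 747 in the control clones (0.92 ± 0.37, limma adjusted p = 0.309). Its change was 0.23 without control clone 1, and 1.60 without control clone 2.

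Genes that supply the enzymes' cofactors included the 1 gene of these lists that passed the threshold. Of 9 tested (10 listed) 7 were positive, with a median of 0.17. In all 1 rose past the threshold (0.115% of all genes), and 2 were higher and 0 lower at an unadjusted p under 0.05 (8.22% and 6.14% of all genes). Idh1, which makes 2-oxoglutarate, the co-substrate of the prolyl and lysyl hydroxylases, rose to 813 and 799.8 in Prox1-labelled clones 1 and 2, against 197 and 215 in control clones 1 and 2. Its log2 change was 1.75 ± 0.19 (limma adjusted p = 0.0229). The call was lost without the filter, where the adjusted p was 0.367 over 22626 probe sets.

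**Figure D3:**
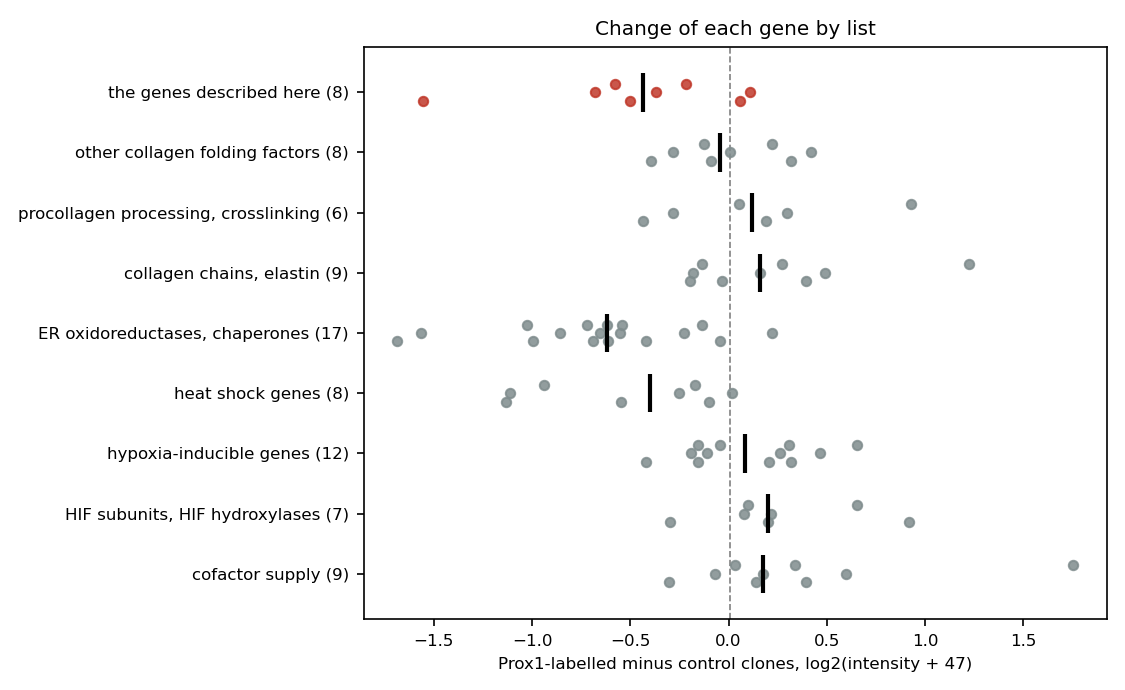
Log2 change, Prox1-labelled minus control clones, of the 8 genes described here (red, Lox included) and of the tested genes of each list (grey), 1 point per gene, with the number of genes in parentheses. Black bars are medians and the dashed line is the median of all tested genes, 0.0074; the medians run from -0.62 for endoplasmic reticulum oxidoreductases and chaperones to 0.20 for HIF subunits and hydroxylases, and that of the 8 genes is -0.44.

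The genes whose pattern over the 4 arrays was nearest to P4ha2 were taken by the Euclidean distance between log2 values centred on their mean, over 6956 genes. These were Pdia4 (distance 0.17), the Integrator subunit gene Ints6 (0.38), Steap1 (0.48), the disulfide isomerase gene Pdia3 (0.53) and Speer4f1 (0.54). With 4 arrays such nearness is a description, and it favours genes with a change of similar size. Pdia3 read 3193 and 4710 in Prox1-labelled clones 1 and 2, against 9375 and 6743 in control clones 1 and 2. Like P4ha2 and all of the other genes named here, Pdia3 was lowest in Prox1-labelled clone 1 and highest in control clone 1. Choosing genes by nearness to P4ha2 favours this order. Ints6 had a second probe set with the opposite sign, 0.57 against -1.44, so its direction is not settled, although the first passed the threshold (limma adjusted p = 0.0352). That call was lost under quantile normalization (limma adjusted p = 0.0675), median centring (0.0699) and without the filter (0.367). Pdia4 had a second, dim probe set at 0.087. Speer4f1 read 43.0 and 98.7 in Prox1-labelled clones 1 and 2, against 211 and 211 in control clones 1 and 2. The first of these 4 values lay under the Bacillus level and the second just above it. Speer4f1 passed the filter through the control values alone, so it had to differ.

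**Figure D4:**
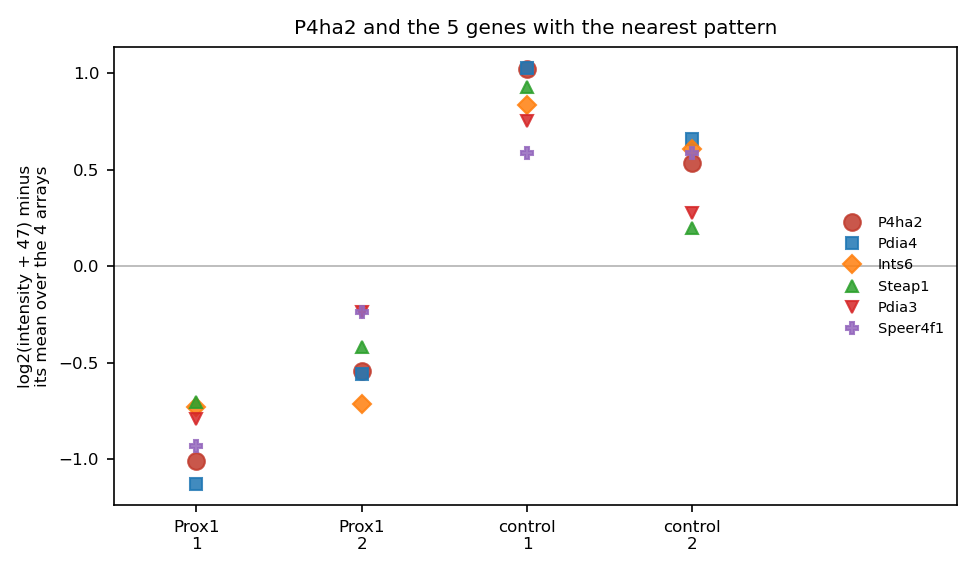
Log2(intensity + 47) minus its mean over the 4 arrays, for P4ha2 (red circles) and the 5 genes with the nearest pattern, in Prox1-labelled clones 1 and 2 and control clones 1 and 2. All 6 genes lie below 0 in both Prox1-labelled clones and above 0 in both control clones, which choosing by nearness to P4ha2 favours. P4ha2 and Pdia4 are 0.17 apart.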

How the data were processed

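RNA of 4 Py-4-1 clones, 2 labelled pcDNA/Prox1 and 2 labelled pcDNA, was measured on 1 array each. The deposited values are linear intensities per probe set, and the submitters' processing notes name MAS5, whose version is not given in the sources used here. Each array has the same trimmed mean, so the deposited scaling was kept. Genes were named from the platform annotation where it gives 1 symbol (20380 of 22626 probe sets, with 691 paired with several and 1555 with none), and 0 symbols needed updating against the RefSeq table.

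Log2(intensity + 47) was compared between the groups in R 4.3.3 by limma 3.58.1, 2-sided, with eBayes moderation along an intensity trend, over 11656 probe sets above their array's median on at least 2 of 4 arrays, with Benjamini-Hochberg adjustment and a threshold of 0.05. Changes and standard errors of the 8 genes described come from the same fit without the filter. The procedure was tried on simulated data in which every clone had the same spread. In the real arrays the control clones lay further apart than the Prox1-labelled clones, so nothing is concluded from that trial. Precision is limited by having 4 arrays, and p-values measure only spread between these clones. The moderation draws part of each probe set's spread from other probe sets of similar intensity. A p-value or standard error thus does not rest on that gene's own clones alone. Alternatives covered normalization, pseudocount, filter, variance model, a clone-number block, probe set choice and leaving out each clone.

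The genes, lists and tests were chosen with earlier results of these data known. Named besides the 8 genes were list members past the threshold or else the 2 with the smallest unadjusted p, and the 5 genes nearest to P4ha2. The observation on control clone 1 was made after the values were seen. Clone numbers in the titles name clones and state no shared batch. Over probe sets, the differences of clone 1 minus clone 2 correlated between the groups with r = -0.0091, so the clones were not treated as pairs.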

Additional observations from a re-analysis of the deposited data

How the results depend on the processing

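The 4 arrays limit every comparison, and leaving out a clone leaves its group with 1 array that is assumed to vary like the other group. The median log2 change of the 8 genes, -0.44, stayed negative and within the spread between clones under all 15 alternatives, from -0.75 to -0.32 when a clone was left out and -0.29 without suffixed probe sets, where P4hb and Serpinh1 dropped out. Of 118 values of single genes, 116 lay within the spread. The 2 others were P4ha2 without a pseudocount (-1.91) and with one of 173 (-1.06). The sign changed in 5, among them Plod2 without control clone 1 (0.29) and Lox without that clone (-0.45), whose brightest probe set gave 0.56 without control clone 2. For many of the 116, lying within the spread was fixed in advance. The spread is the larger SD of a group's 2 log2 values, and leaving out a clone shifts a gene's change by less. The filter, variance model and block settings left these changes, and the median of the 8 genes, as they were.

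The number of probe sets past the threshold, 12, was 4 under quantile normalization and under median centring, 7 with a robust variance model, 6 without suffixed probe sets and 0 without the filter, where limma had more probe sets to adjust over. It was 110 with the clone number as a replicate block, and from 28 to 1223 when a clone was left out (141 without control clone 1, 1223 without control clone 2, 28 and 57 without Prox1-labelled clones 1 and 2). The listed genes past the threshold, 1 with the settings used, numbered 2 with a pseudocount of 173 or the stricter filter, 5 with the replicate block, 0 without the filter or without suffixed probe sets, where the probe set of Idh1 dropped out, and from 2 to 22 when a clone was left out. Of 239 values of 18 named genes none changed sign, 4 lost and 21 gained a call, and 16 of the 21 came from leaving out a clone. Of 120 list medians 16 moved by more than the spread between clones, and the cause was not tested. The cofactor list had the smallest spread, 0.0075, and stayed within it in 4 of 15 alternatives. Its median ran from 0.086 to 0.26 over these.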
